A study of Danio rerio with 9 samples.

Results

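The genes described here build the nuclear pore, carry cargo through it and line the nuclear envelope. They were taken by symbol: nucleoporins, importins, transportins, exportins, Ran and its regulators, lamins and inner nuclear membrane proteins. The symbol rule found 65 of the 30702 loci listed in each library table, 2 of them named xpo6, and 32 had a mean of at least 1 FPKM (fragments mapped, per transcript length and sequencing depth) over the 9 libraries. The libraries were made from whole zebrafish embryos at 3 hours after fertilization. There were 3 tetraploid, 3 haploid and 3 diploid control libraries, and every library is listed with a TJH mother and a Tu father. Haploid and tetraploid embryos were made by a published method that the labels cite without describing it, and the labels name no clutch, pool size or day. The p-values below therefore measure the spread between these libraries, which may be technical.

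Nuclear pores are rings of nucleoporins set in the nuclear envelope, with a scaffold of Y-shaped and inner ring complexes and a channel lined by proteins rich in phenylalanine-glycine repeats. Importins bind cargo in the cytoplasm and release it in the nucleus when they meet Ran-GTP, and exportins bind cargo together with Ran-GTP. Lamins form the meshwork under the inner membrane. Early embryos draw on maternal stores of these products, and in Xenopus the supply of import factors and lamins is known to affect how large nuclei grow. In RNA from whole embryos, fewer cells of a type and less RNA per cell cannot be told apart.

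Whether a locus was measured went with its number. On every chromosome the locus numbers rise with position, restart once and rise again. Of the 15165 loci of the first numbering run, 38.5% had a mean of at least 1 FPKM and a valid estimate, against 0.283% of the 15537 loci of the second run. The symbol rule took 33 loci of the first run, 32 of them measured, and 32 loci of the second run, 0 of them measured. The highest value of any second-run locus of the set in any library was 0.353 FPKM. These loci count as unmeasured, not as silent. In the authors' deposited pooled tables the 33 loci below the mean of 1 FPKM reached at most 0.851 FPKM.

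The loss fell unevenly on the machinery. Importin alpha, the adaptor that links cargo with a nuclear localization signal to importin beta, had 0 of 7 loci measured, kpna2 and kpna7 among the missing. The Ran exchange factor rcc1, the Ran-binding protein ranbp1, rangap1b and the exportin xpo1a were unmeasured too. Among 6 lamina and inner membrane loci lmnb1 alone was measured. lmna, lmnb2, lbr and lemd3 lay in the second run, with lmna and lmnb2 listed at 0 in all libraries. emd, a first-run locus, had a mean of 0.227 FPKM. Of 24 nucleoporin loci, 13 were measured. The missing ones include nup107 and nup160 of the Y complex, nup205 and nup155 of the inner ring, the membrane nucleoporin ndc1, nup98 and nup54 of the channel, nup88, and nup153 of the basket. The Ran cycle had 4 of 7 loci measured, the listed import receptors of the importin beta family 6 of 10 and the export receptors 5 of 8. kpnb3, a measured locus of the same family, is in no role list and is counted apart from the import receptors throughout. The lowest mean among measured loci was 2.55 FPKM, in rangap1a, and the highest among unmeasured ones was that of emd.

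One measured locus, the import receptor ipo7, could not be tested, because its estimate in haploid replicate 3 carries a failed status. Its scaled values were 33.2, 36.5 and 47.0 in tetraploids, 48.3 and 38.0 in the other haploids, and 38.4, 28.4 and 39.2 in diploids. The remaining 31 loci were tested among 5881 loci. The locus named dmtn,xpo7 spans a pair of genes whose reads cannot be separated, so its values may belong to either. How strand and reads shared between paralogs such as xpo1a and xpo1b were handled is not given in the sources used here.

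Levels below are FPKM scaled between libraries by median-of-ratios factors, and since FPKM is per length they can be compared between genes. They are relative to the other loci of a library, so a change in total RNA per embryo with ploidy would not show. The 31 tested loci had a median level of 21.1 scaled FPKM, against 12.02 over all 5881 tested loci, and 21 of the 31 lay above the median of all. A few loci dominated. Ran alone held 24.3% of the summed level of the 31 loci, and the top 5 loci held 59.9%.

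The GTPase gene ran, on chromosome 14 from 21388291 to 21396669 (all coordinates GRCz10, as listed), had 464.6, 451.3 and 519.6 scaled FPKM in tetraploids, 533.3, 450.5 and 477.7 in haploids, and 479.6, 526.0 and 458.9 in diploids. The 3 groups overlapped, and only 0.75% of tested loci had a level as high or higher. Next in level were kpnb3 and lmnb1. The lamin gene lmnb1, on chromosome 10 from 16078126 to 16098789, had 198.8, 210.5 and 244.2 scaled FPKM in tetraploids, 232.5, 219.4 and 227.6 in haploids, and 206.0, 191.7 and 222.5 in diploids. Its groups overlapped as well. The channel nucleoporin nup62l averaged 138 ± 12.7, 127 ± 26.9 and 146 ± 6.23 scaled FPKM in tetraploids, haploids and diploids (SD, n = 3 each), and tnpo3, the import receptor of splicing factors rich in serine and arginine, 141 ± 29.6, 135 ± 5.66 and 133 ± 4.56. The order of kpnb3 and lmnb1, and that of nup62l and tnpo3, cannot be told from these values, since their means over 9 libraries were 218.6 against 217 and 137 against 136.5.

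Below these came nup50 of the nuclear basket, tnpo2, a transportin, ranbp3b, a cofactor of export, nup43 and seh1l of the Y complex and xpo4, an exportin, with means over 9 libraries of 59.6 to 122 scaled FPKM. The importin beta gene kpnb1 had a mean of 44.6. At the low end stood XPO5, the exportin of microRNA precursors, with 6.67, nupl2 with 5.22, the import receptor ipo8 with 2.90 and rangap1a, which codes for the activator of Ran's GTPase, with 2.50. Among the 5 measured Y complex loci of the set, whose products are built into the pore together, the mean level ran between 9.04 in nup133 and 63.6 in nup43.

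**Figure D1:**
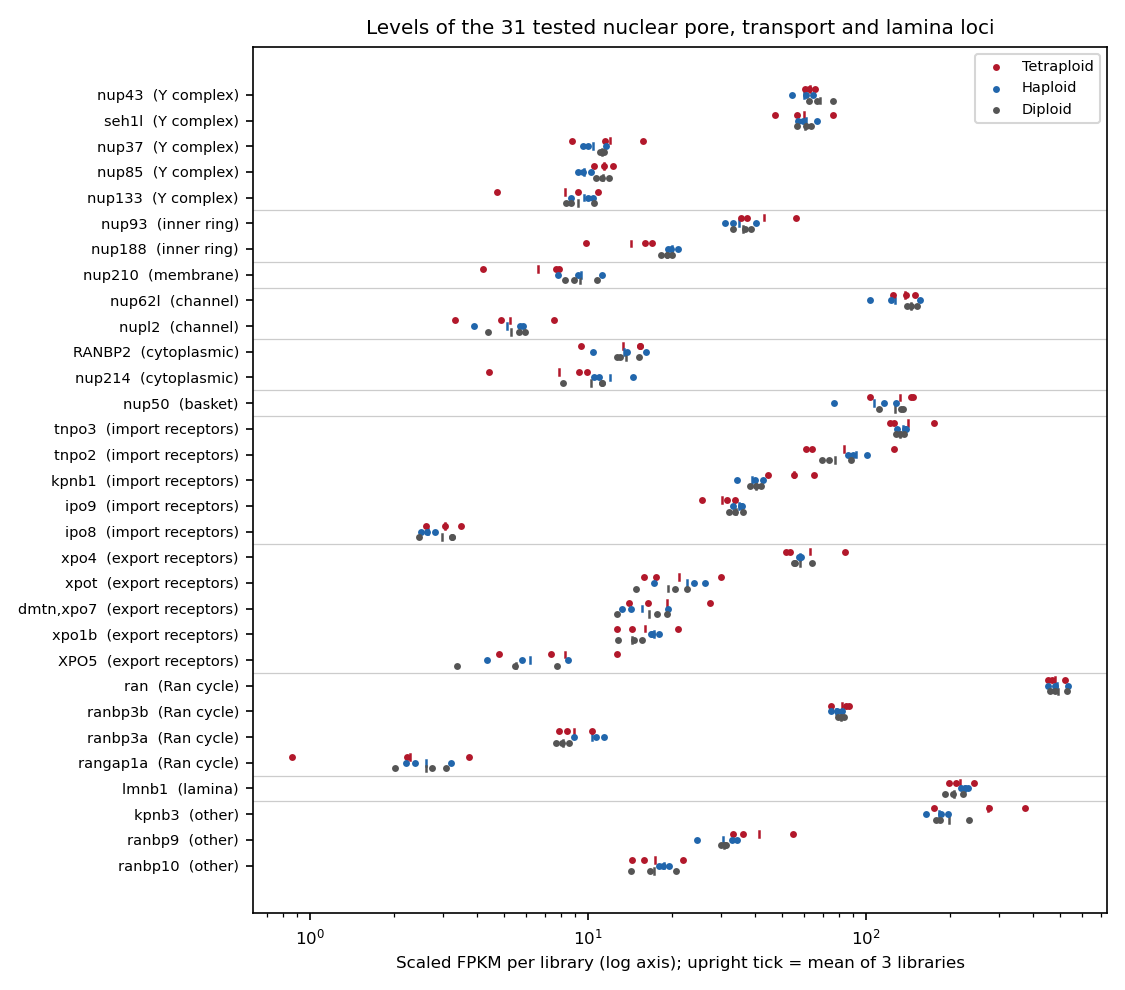
Scaled FPKM of the 31 tested loci in each library on a log axis, grouped by role, with tetraploid, haploid and diploid libraries in red, blue and grey and the mean of 3 libraries as an upright tick. The levels span rangap1a, with 0.863 in tetraploid replicate 3, to ran, with 533.3 in haploid replicate 1, and for most loci the points of the 3 ploidies overlap.

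Depth was not stated. Read as counting error of 2 standard deviations, the deposited intervals imply a median of 1084 fragments per locus and library for the 31 loci. The lowest were 12.8 for nupl2 and 16.0 for rangap1a, and the highest was 9144 for tnpo2. Over all loci with an FPKM of at least 1 the libraries' medians were 215.6 to 427.5 fragments. Between 5395 and 5921 loci per library had an FPKM of at least 1, and 14.7% to 26.7% of all FPKM was mitochondrial. Markers of maternal egg RNA, fixed as a list of 9 loci with 5 tested, summed to 1052 to 1298 scaled FPKM in tetraploids, 1015 to 1074 in haploids and 967.1 to 1083 in diploids. Germ plasm markers (8 loci found, 4 in the second run) summed to 447.1 to 583.1, 534 to 567.1 and 514.3 to 556.7. Enveloping layer markers (8 loci, 6 in the second run and 4 at 0 in all libraries) summed to 9.90 to 23.1, 1.36 to 19.8 and 10.9 to 73.4, and yolk syncytial layer markers (7 loci, 2 at 0) to 14.7 to 22.2, 10.5 to 24.3 and 17.8 to 33.4, in the same order of ploidies. Early zygotic genes (24 loci, 11 at 0) summed to 40.7 to 62.65, 16.1 to 64.0 and 37.0 to 192, with the highest value in diploid replicate 1. Among haploids replicate 1 was highest, with 64.0 against 16.1 and 19.15. The lists share loci: klf17 is also an enveloping layer marker, and mxtx2 and apoeb are also yolk syncytial layer markers. Most of the maternal egg sum was nanog, with means of 1013, 917.4 and 884.8 in tetraploids, haploids and diploids. The part of embryo stage in the differences below was not tested.

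Tetraploid replicate 3 stood apart from the other libraries, with correlations over tested loci of 0.916 to 0.930, against 0.950 to 0.985 among the 28 other pairs. Counts and differences of tetraploids that the text turns on are therefore also given without it. Among the 31 loci, 16 deviated by more than 0.5 log2 units in that library from the mean of the other 8, against 0 to 2 loci in each of the other libraries. Over all loci the share was 43.2% in that library and 8.40% to 20.9% in the others.

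Comparing tetraploids with diploids asks whether a larger genome content goes with altered transcript levels of the transport machinery. None of the 31 loci passed. Limma called 0 of them, with 1 at an unadjusted p under 0.05, against 1 of 5881 loci called in all (0.017%), with 287 loci at an unadjusted p under 0.05 (4.88%). Without tetraploid replicate 3 there were 1 of the 31 and 271 of all loci (4.61%) at an unadjusted p under 0.05, and kpnb1 was replaced there by tnpo2. The smallest adjusted p among the 31 loci was 0.833. The median log2 difference was 0.03 over the 31 loci and -0.00 over all loci, and the extremes were -0.48 and 0.48. Of the 31 loci, 19 were positive, against 49.5% of all loci. Without tetraploid replicate 3, 14 of the 31 were positive, and the median was -0.01 over the 31 loci and 0.002 over all loci. With FPKM as deposited 6 were positive, and the median was -0.09 over the 31 loci and -0.11 over all loci. The 95% interval of the difference lay within 2-fold in either direction for 28 of the 31 loci. The exceptions were nup210, nup214 and XPO5. It lay within 0.5 log2 units for 13.

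The importin beta gene kpnb1, on chromosome 19 from 48364179 to 48377425, carries cargo bound to importin alpha through the pore. It had 55.1, 44.2 and 65.2 scaled FPKM in tetraploids, 39.99, 42.5 and 34.2 in haploids, and 38.2, 40.2 and 41.8 in diploids. Every tetraploid library lay above every haploid and every diploid library, and haploids and diploids overlapped. The log2 difference of tetraploids against diploids was 0.43 ± 0.162 (SE), a 1.34-fold higher level (limma, adjusted p = 0.833), and 0.29 without tetraploid replicate 3 (adjusted p = 0.959). Against haploids it was 0.47 ± 0.162 (adjusted p = 0.551) and 0.34 without that library. Chromosome 19 as a whole had a median deviation of 0.29 in tetraploid replicate 3 over 247 loci, where kpnb1 deviated by 0.63.

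Of the 31 loci, 4 had tetraploid and diploid libraries that did not overlap (12.9%), against 11.5% of all loci. With 2 tetraploid libraries, replicate 3 left out, the counts were 12 of the 31 (38.7%) and 23.3% of all loci. Of the 4 found with all libraries, 2 were on the higher side, where 5.48% of all loci stood. They were kpnb1 and ranbp9, which codes for a scaffold protein of a ubiquitin ligase complex and is in no role list. ranbp9 had 33.2, 36.1 and 54.7 scaled FPKM in tetraploids and 31.1, 30.1 and 31.4 in diploids, a log2 difference of 0.38 ± 0.203 and 0.16 without tetraploid replicate 3. The 2 on the lower side, where 6.02% of all loci stood, were large nucleoporins. nup188 of the inner ring, on chromosome 21 from 4375505 to 4442080, had 16.1, 17.0 and 9.82 scaled FPKM in tetraploids, 21.1, 19.9 and 19.3 in haploids, and 18.3, 20.1 and 19.3 in diploids. All tetraploid libraries lay below all others. The log2 difference against diploids was -0.44 ± 0.198 (limma, adjusted p = 0.833), and -0.21 without that library (adjusted p = 0.959). The membrane nucleoporin nup210, on chromosome 23 from 4544197 to 4618627, had 7.67, 7.89 and 4.19 scaled FPKM in tetraploids, 7.82, 11.2 and 9.18 in haploids, and 8.29, 8.94 and 10.7 in diploids. Its log2 difference against diploids was -0.48 ± 0.243 with all libraries and -0.23 without tetraploid replicate 3.

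The other named loci overlapped between tetraploids and diploids. kpnb3, karyopherin beta 3, is a member of the importin beta family and lies on chromosome 1 from 2112612 to 2151759. It had 175.3, 276.1 and 372.4 scaled FPKM in tetraploids, 196.4, 164.7 and 185.6 in haploids, and 178.3, 234.4 and 184.4 in diploids. The tetraploid libraries were the most spread of the 3 groups, from below every diploid library to above all other libraries. Its log2 difference against diploids was 0.41 ± 0.245, and 0.16 without tetraploid replicate 3. XPO5, whose symbol is in capitals in the files, had 4.80, 7.34 and 12.7 in tetraploids and 7.76, 5.44 and 3.37 in diploids, a log2 difference of 0.48 ± 0.368, and 0.15 without tetraploid replicate 3. It was chosen after its values were seen, as the most variable of the 31 loci, with a coefficient of variation of 42.2% over 9 libraries and 30.3% without tetraploid replicate 3. The log2 differences of ran and lmnb1 were -0.03 (95% interval -0.31 to 0.25) and 0.07 (-0.20 to 0.35), and -0.09 and -0.01 without that library. The inner ring gene nup93 had 0.21 ± 0.189 with all libraries and 0.01 without tetraploid replicate 3.

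**Figure D2:**
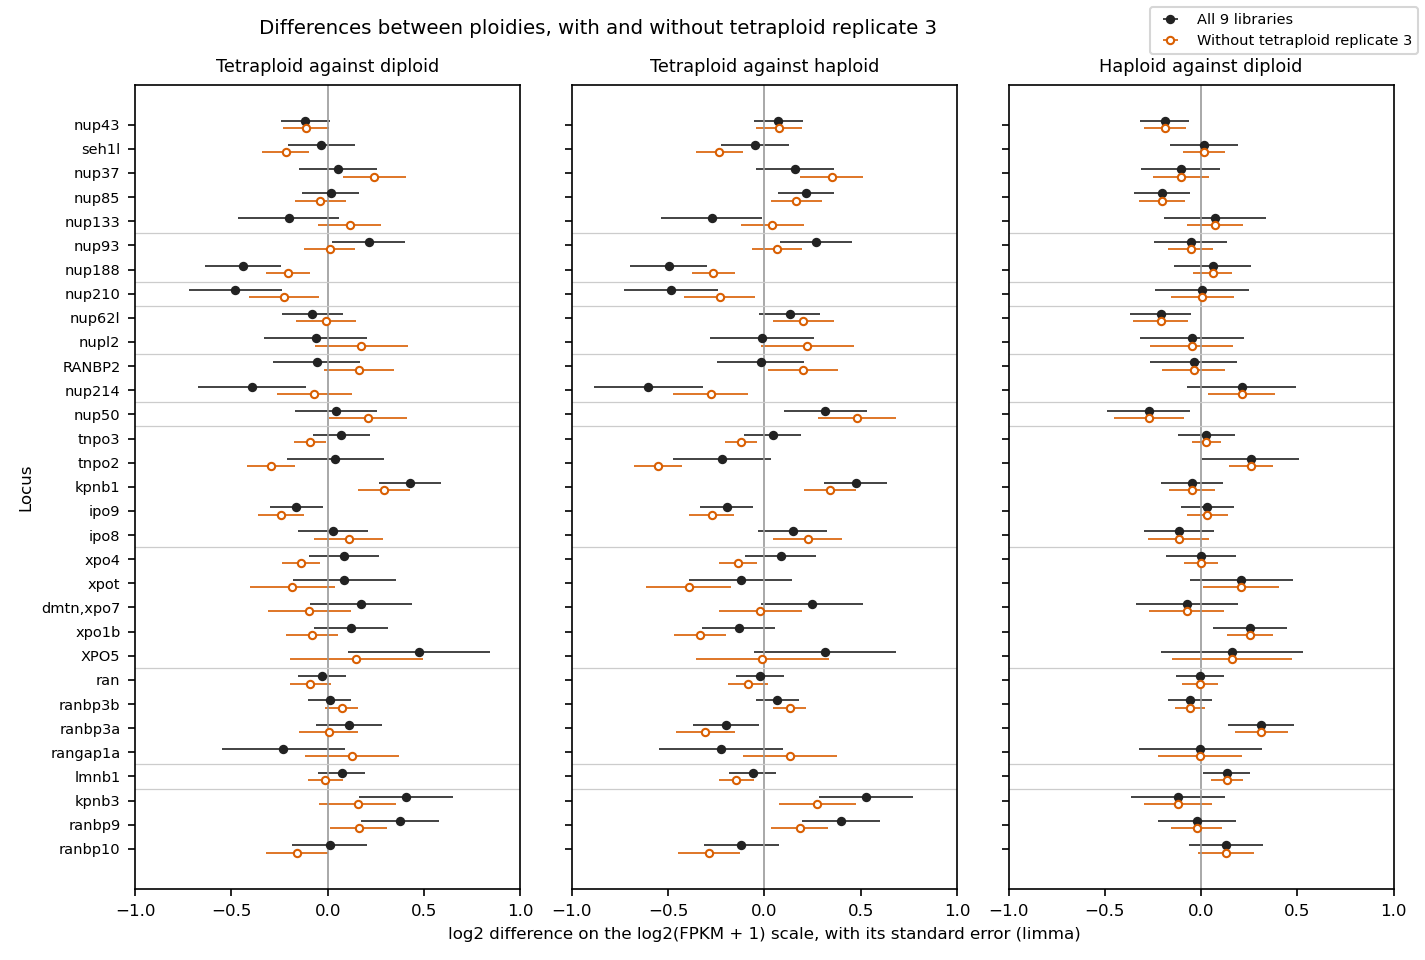
Log2 differences with standard errors for the 31 tested loci in the 3 comparisons, from the fit of all 9 libraries (filled) and of 8 libraries without tetraploid replicate 3 (open). In tetraploids against diploids the filled points run from -0.48 to 0.48 and the open ones from -0.29 to 0.29, and haploids against diploids span -0.27 to 0.31.

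Within tetraploid replicate 3, 7 of the 13 nucleoporins lay below all 8 other libraries, 3 above and 3 within their range, against 28.9% below and 29% above among all tested loci. Of the 5 Y complex loci 2 lay below and 2 above, and of the 2 inner ring loci 1 lay below and 1 above. Of the 5 export receptors of the set, 5 lay above all 8 other libraries, and 3 with FPKM as deposited. Of the 5 listed import receptors, 3 lay above (tnpo3, tnpo2 and kpnb1), but with FPKM as deposited 0 did and 1 lay below. kpnb3, counted apart, lay above both ways, with 295.4 FPKM as deposited against at most 286.5 in the other libraries. ranbp9 lay above both ways as well, ranbp10 with scaling alone, and lmnb1 lay above with scaling and below without it. With FPKM as deposited, 9 of 13 nucleoporins lay below and 1 above, against 45.9% and 12.2% of all loci. The roles were assigned with earlier results of these data known, and these counts were singled out after this library was seen, so no test is attached to it.

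The low nucleoporins were subunits of several parts of the pore. nup214, a cytoplasmic nucleoporin at chromosome 5 from 71099966 to 71186048, had 4.41 scaled FPKM in tetraploid replicate 3, against 8.16 to 14.5 in the other 8 libraries. nup210 had 4.19 against 7.67 to 11.2, nup133 had 4.70 against 8.31 to 10.8, and nup188 had 9.82 against 16.1 to 21.1. RANBP2, the large nucleoporin of the cytoplasmic filaments, had 9.41 against 10.5 to 16.1, nupl2, named nup42 in RefSeq, had 3.32 against 3.87 to 7.52, and nup37 had 8.75 against 9.59 to 15.7. Among the other nucleoporins, seh1l, nup85 and nup93 lay above the other libraries, with nup93 at 56.0 against 31.2 to 40.2. With FPKM as deposited, nup93 was the only nucleoporin above them. With scaling, nup50, nup62l and nup43 lay within the range of the other libraries. Outside the pore, rangap1a had 0.863 against 2.01 to 3.74. The chromosomes of nup214, nup210 and nup133 had medians of 0.07, -0.01 and 0.02 in this library, where the genes deviated by -1.10, -0.93 and -0.89. That of nup188, chromosome 21, had a median of -0.23, the lowest of the numbered chromosomes, and nup188 deviated by -0.87. The part of such chromosome-wide shifts was not tested.

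The 5 export receptors of the set lay on the other side in this library. The exportin cse1l, outside the symbol rule, did not. Its log2 difference of tetraploids against diploids was -0.16 with all libraries and -0.02 without tetraploid replicate 3. xpo4 had 83.7 scaled FPKM in tetraploid replicate 3, against 51.7 to 63.8 in the other 8 libraries, xpot, the tRNA exportin, had 30.1 against 14.9 to 26.4, and xpo1b, a copy of the exportin of leucine-rich export signals, had 21.0 against 12.7 to 18.1. The locus dmtn,xpo7 had 27.4 against 12.7 to 19.4, and XPO5 had 12.7 against 3.37 to 8.48. tnpo2 had 125.7 against 60.6 to 100.6. From the mean of 9 libraries, the median deviation of the 5 export receptors was 0.53 log2 units in tetraploid replicate 3, and -0.29 and -0.12 in the other tetraploids. For the 5 import receptors it was 0.37, against -0.15 and -0.06, and for the 13 nucleoporins -0.31, against 0.04 and 0.04. The difference between tetraploids and diploids changed sign without replicate 3 in 4 of the 5 export receptors, and the median log2 difference of all 5 was then -0.10. Since all 5 lay above the other libraries in replicate 3, leaving it out had to lower their differences. The share of such sign changes over all loci is not given here.

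**Figure D3:**
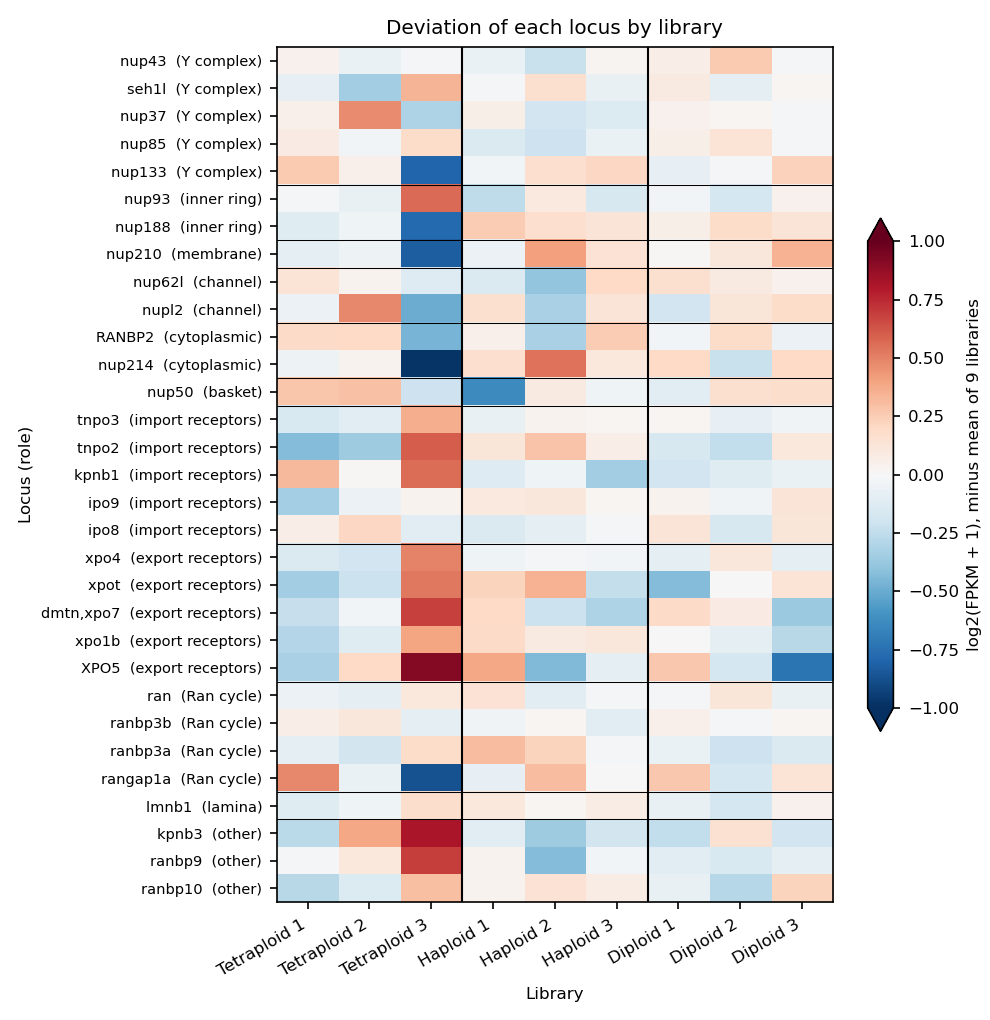
Deviation of log2(FPKM + 1) from the mean of 9 libraries for each of the 31 tested loci (rows, by role) in each library (columns), blue for lower and red for higher, with the colour scale ending at -1 and 1. The column of tetraploid replicate 3 holds dark blue cells at nup214, nup210, nup133, nup188 and rangap1a and dark red cells at XPO5, kpnb3, ranbp9 and dmtn,xpo7.

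**Figure D4:**
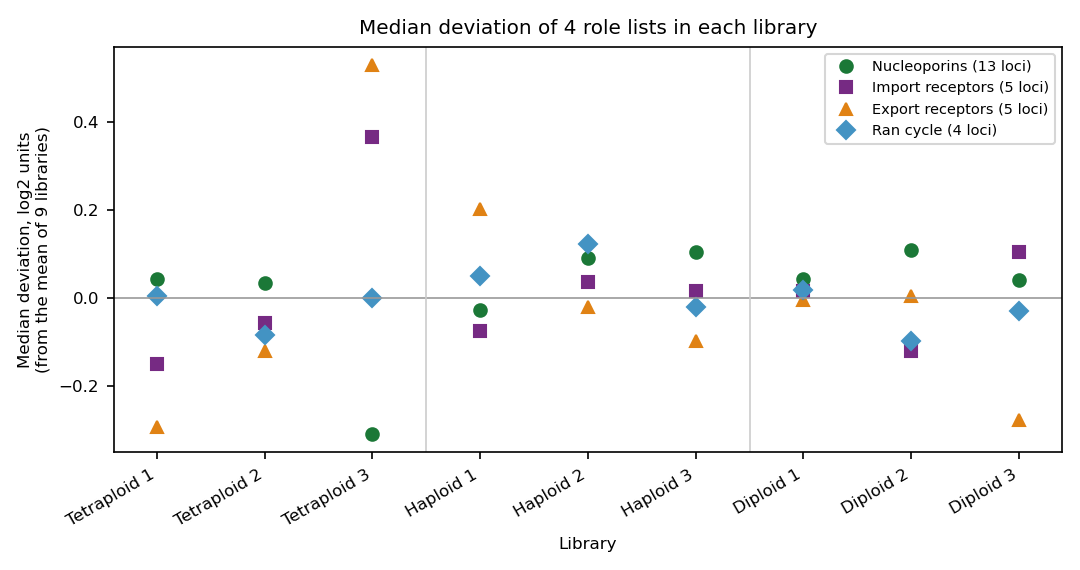
Median deviation in log2 units of nucleoporins, import receptors, export receptors and Ran cycle genes in each library, from the mean of 9 libraries. In tetraploid replicate 3 the export receptors stand at 0.53 and the nucleoporins at -0.31, while in the other 8 libraries all 4 medians lie between -0.29 and 0.20. The 5 import receptors, kpnb3 not among them, stand at 0.37 in that library, but 0 of the 5 lie above the other libraries with FPKM as deposited.

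Comparing tetraploids with haploids spans the widest step in ploidy. Limma called 0 of the 31 loci, with 2 at an unadjusted p under 0.05, against 1 of 5881 loci called in all (0.017%) and 453 at an unadjusted p under 0.05 (7.7%). Without tetraploid replicate 3 there were 6 of the 31 (19.4%) at an unadjusted p under 0.05, namely ipo9, kpnb1, nup188, nup50, tnpo2 and xpo1b, against 583 of all loci (9.91%), and limma still called 0 of the 31. The 95% interval lay within 2-fold in either direction for 27 of the 31 loci, XPO5, kpnb3, nup210 and nup214 being the exceptions, and within 0.5 log2 units for 8. The median log2 difference was -0.01 over the 31 loci and -0.01 over all loci. Of the 31 loci, 15 were positive, against 49.2% of all loci, and 15 were without tetraploid replicate 3. With FPKM as deposited 11 were positive, and the median was -0.09 both over the 31 loci and over all loci. Tetraploid and haploid libraries did not overlap in 4 of the 31 loci (12.9%), against 13.8% of all loci. With replicate 3 left out the counts were 16 of the 31 (51.6%) and 27.7% of all loci. The 4 found with all libraries were 2 on the higher side, kpnb1 and nup85, against 7.23% of all loci. The other 2 were on the lower side, nup188 and nup214, against 6.53% of all loci. nup85, a Y complex subunit on chromosome 3 from 6557883 to 6591554, had 11.4, 10.5 and 12.3 scaled FPKM in tetraploids, 9.62, 9.18 and 10.2 in haploids, and 11.3, 11.9 and 10.7 in diploids. Haploid libraries lay below all others in it with scaling. With FPKM as deposited, tetraploid replicate 3 had 9.78, below haploid replicates 1 and 3 with 9.88 and 10.47. Its log2 difference of tetraploids against haploids was 0.22 ± 0.146 (limma, adjusted p = 0.715), and 0.17 without tetraploid replicate 3. For nup214 the difference was -0.60 ± 0.281, the most negative of the 31 loci, and -0.28 without tetraploid replicate 3. For nup188 it was -0.50 ± 0.198, and -0.27 without that library (adjusted p = 0.618 and 0.488).

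The largest positive difference in this comparison was that of kpnb3, with 0.53 ± 0.245, and 0.28 without tetraploid replicate 3. Without that library the largest in size was in tnpo2, which in mammals imports RNA-binding proteins of the hnRNP family, with -0.55 ± 0.126 (limma, adjusted p = 0.391), against -0.22 ± 0.252 with it. Its scaled levels were 60.6 and 64.1 in tetraploid replicates 1 and 2, below the 86.4 to 100.6 of haploids and the 69.2 to 88.5 of diploids, and 125.7 in tetraploid replicate 3, above all of them. tnpo2 was named after its values were seen. nup50 had a difference of 0.32 ± 0.214 with all libraries, 0.48 without tetraploid replicate 3 and 0.10 without haploid replicate 1.

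Comparing haploids with diploids asks what a single genome set goes with. The 31 loci lay close to the diploid level on this relative scale. Limma called 0 of them, and 0 of the 5881 loci in all (0%). At an unadjusted p under 0.05 there were 0 of the 31 and 81 of all loci (1.38%), and 1 of the 31, tnpo2, and 203 of all loci (3.45%) where tetraploid replicate 3 did not enter the shared spread. The median log2 difference was -0.00 over the 31 loci and -0.01 over all loci, and the extremes were -0.27 and 0.31. Of the 31 loci, 14 were positive, against 48.8% of all loci. None of the 31 differed by more than 0.5 log2 units, against 5.12% of all loci, whose median level was lower. In tetraploids against diploids none of the 31 did either, against 10.8% of all loci. In haploids against diploids the 95% intervals of all 31 lay within 2-fold in either direction, and those of 11 within 0.5 log2 units. Haploid and diploid libraries did not overlap in 3 of the 31 loci (9.68%), against 8.59% of all loci.

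The 2 higher ones were xpo1b and ranbp3a, against 4.66% of all loci on that side, and the 1 lower one was nup85, against 3.93%. xpo1b, on chromosome 17 from 23945730 to 23969180, had 18.1, 16.8 and 17.0 scaled FPKM in haploids and 15.7, 14.7 and 12.8 in diploids, a log2 difference of 0.25 ± 0.192 (SE). ranbp3a, on chromosome 11 from 6298114 to 6319463 and like ranbp3b named for a cofactor of that exportin, had 11.4, 10.7 and 8.88 in haploids and 8.57, 7.66 and 8.05 in diploids, a difference of 0.31 ± 0.171. nup85 had a difference of -0.20 ± 0.146. The adjusted p of each was 0.999 by limma. The most negative difference was in nup50, with -0.27 ± 0.214, where haploid replicate 1 had 76.7 scaled FPKM, the lowest of all libraries, against 127.9 and 116.4 in the other haploids and 111.5, 133.9 and 135.5 in diploids. Without haploid replicate 1 its difference was -0.05, and other loci were then more negative, nup85 and nup43 at -0.20 among them. Of the other named loci, ran had -0.00 (95% interval -0.28 to 0.27), lmnb1 0.13 (-0.14 to 0.41), kpnb1 -0.05 (-0.41 to 0.31) and rangap1a -0.00 (-0.72 to 0.72). By role, 5 of 13 nucleoporins, 3 of 5 import receptors, 3 of 5 export receptors and 1 of 4 Ran cycle loci were positive. With FPKM as deposited 3 of the 13 nucleoporins were, and the median over all loci was then -0.03.

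The spread between libraries set how small a difference could be seen. Over the 9 libraries the coefficient of variation of the 31 loci was 5.17% to 42.2%, with a median of 17.5%, against 23.0% over all loci, whose median level was lower. Without tetraploid replicate 3 the medians were 13.0% and 17.97%, and among the 3 diploids 9.86% and 14.3%. The steadiest of the 31 over the 9 libraries were ranbp3b, with 5.17%, ran, with 6.81%, and lmnb1, with 7.75%. Without tetraploid replicate 3 they were tnpo3, with 4.69%, ranbp3b, with 4.73%, and xpo4, with 6.52%, followed by lmnb1, with 6.70%, and ran, with 6.74%.

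The authors' deposited tables also hold 1 pooled Cuffdiff value per ploidy and locus, with no replicate, and for the 31 loci the diploid values of the first table were 2.28 to 2.57 times the mean scaled level of the diploid libraries. In the authors' deposited table, the first of the pair, kpnb1 had 135.7 FPKM in tetraploids, 94.9 in haploids and 95.1 in diploids, and kpnb3 had 781.7, 452.8 and 511.2. Likewise, nup210 had 15.8, 22.7 and 22.1 FPKM and nup188 had 34.3, 48.1 and 45.0 in the authors' deposited table. The authors' deposited tables differed from each other in scale. The ratio of tetraploids to diploids was above 1 for 21 of the 31 loci in the first and 26 in the second, with medians of 1.05 and 1.17, and that of haploids to diploids for 19 and 28, with medians of 1.02 and 1.16. Directions of loci near a ratio of 1 therefore depend on which of the authors' deposited tables is read. The same shares over all loci are not given here, so these counts cannot be read as a rise particular to these loci.

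Other genes of nuclear transport and the envelope, a list of 38 symbols outside the symbol rule, gave 32 loci, 17 of them in the second run and 14 tested. Limma called 0 of the 14 in each comparison, with 0, 3 and 1 at an unadjusted p under 0.05 in tetraploids against diploids, tetraploids against haploids and haploids against diploids. Over all tested loci the shares under that threshold were 4.88%, 7.7% and 1.38% in the same order. Their median log2 difference was -0.02 in tetraploids against diploids (7 of 14 positive), -0.01 in tetraploids against haploids (7 of 14 positive) and -0.06 in haploids against diploids (4 of 14 positive). The nucleoplasmin gene npm2a, whose protein binds histones in eggs, averaged 52.0 ± 2.32 scaled FPKM in tetraploids, 36.9 ± 4.81 in haploids and 46.8 ± 4.46 in diploids (SD, n = 3 each), with a log2 difference of 0.49 ± 0.14 for tetraploids against haploids (limma, adjusted p = 0.55), and 0.53 without tetraploid replicate 3. sun1, an inner nuclear membrane protein that ties the nucleus to the cytoskeleton, averaged 13.6 ± 2.38, 19.9 ± 1.77 and 15.2 ± 1.66, with -0.53 ± 0.17 in the same comparison (adjusted p = 0.55), and -0.43 without that library. The Y complex subunit sec13 averaged 94.1 ± 23.4 scaled FPKM in tetraploids, 99.7 ± 13.0 in haploids and 114 ± 4.46 in diploids. cse1l, the exportin that returns importin alpha to the cytoplasm, averaged 5.59 ± 1.90, 5.68 ± 0.58 and 6.22 ± 1.13 in the same order. npm2a, sun1, sec13 and cse1l were named after their values were seen.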

How the data were processed

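For every library the authors deposited FPKM with interval bounds per gene, and for each ploidy pooled FPKM in 2 tables. The submitters' processing notes list GRCz10 as the build and name HISAT2, Cufflinks, Cuffdiff, Trim Galore and FastQC. What annotation, tool versions and strandedness were used is not given in the sources used here. Intervals were used only to gauge depth and do not cover biological spread. Reading them as counting error is rough. For some unmeasured loci it implied less than a whole fragment, as in nup153 with 0.003. The members and gene lists were chosen with earlier results of these data known.

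FPKM were scaled by median-of-ratios factors (0.793 for tetraploid replicate 3, 1.00 to 1.05 for the others). Loci with a mean deposited FPKM of at least 1 were tested, leaving out 5 with a failed status. Values were fitted as log2(FPKM + 1) by limma 3.58.1 under R 4.3.3, letting the variance follow the mean, on all 9 libraries (6 residual degrees of freedom), two-sided, with Benjamini-Hochberg adjustment over all 5881 tested loci at 0.05. This scale understates differences of low genes. The fit was tested on simulated data. Counts of unadjusted p and of groups that do not overlap without tetraploid replicate 3 were added after the data were seen. Replicates are numbered in accession order and were not paired.

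Named loci were those passing the test, the 4 largest positive and negative differences per comparison without group overlap, the highest of each role and a fixed list (kpna2, kpna7, kpnb1, ran, rcc1, rangap1a, lmna, lmnb1, lmnb2, lbr, nup107, nup153, nup98, ndc1, xpo1a, xpo1b), and loci named otherwise were chosen after their values were seen. Of 65 loci, 64 had a symbol or synonym in RefSeq (GRCz12tu), used for names only.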

Additional observations from a re-analysis of the deposited data

How the results depend on the processing

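Limma called 0 of the 31 loci in each comparison under every alternative run (FPKM as deposited, upper-quartile scaling, pseudocounts of 0.1 and 5, no filter, a mean FPKM of at least 5, the 6 libraries compared, library weights, a block for sets of consecutive library numbers, and each library left out in turn). The median log2 difference of the loci moved by more than its spread between libraries (0.0767) in 1 case, to -0.0891 (tetraploids against diploids, FPKM as deposited, where all loci had -0.11). Over single libraries left out it ranged from -0.02 to 0.02 in haploids against diploids, -0.01 to 0.06 in tetraploids against diploids and -0.01 to 0.06 in tetraploids against haploids. Calls over all loci in tetraploids against diploids were 0 with FPKM as deposited, a pseudocount of 5, no filter, only the 6 libraries compared and the replicate block. In tetraploids against haploids they were 0 with no filter, the 6 libraries and the replicate block. Leaving out single libraries gave 0 to 1 calls in each comparison, and in haploids against diploids the 1 call came without diploid replicate 1. Library sets were not paired in the main fit, and the labels name no clutch. Deviations of libraries with consecutive numbers correlated by -0.11 to 0.23. Whether such libraries share a clutch or day was not tested. For 19 named loci, 27, 28 and 18 of 341 uncalled log2 differences changed sign in haploids against diploids, tetraploids against diploids and tetraploids against haploids, and 0, 4 and 1 moved by more than their spread. With no filter most residual variances are 0, which makes that fit unreliable.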
